A study of Mus musculus with 13 samples.

Results

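Cholesterol genes were described in the mouse colon epithelium as 33 of the 32285 genes in the deposited matrix, chosen by name and sorted into 5 roles. Synthesis had 18 genes, sterol sensing 7, uptake and transport 3, storage 2 and efflux 3. None of the 33 genes belongs to the marker lists by which cells were assigned to types below.

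Cells make cholesterol from acetyl-CoA through mevalonate, isoprenoid diphosphates, squalene and lanosterol, and each step has its own enzyme. When sterol in the endoplasmic reticulum runs low, the escort protein SCAP carries the SREBP transcription factors to the Golgi, where they are cleaved and then switch on the synthesis genes. When sterol is plentiful, the INSIG proteins hold SCAP and the SREBPs back, surplus cholesterol is esterified by the SOAT enzymes, and oxysterol-bound LXR receptors switch on the ABC transporters that move sterol out of the cell.

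The study asked, by its title, how nicotinic acid made by the microbiome bears on the regional identity of the colon. Epithelial cells of whole colons (EPCAM+, CD45-) were sorted with equal numbers of CD44+ and CD44- cells, pooled by condition, and read out cell by cell with a droplet kit that tags the 3' ends of transcripts, so that each captured molecule counts once as a unique molecular identifier (UMI). One group was wild type C57BL/6J mice treated with antibiotics (batch1, 3 cDNA libraries), and the other was germ-free mice of the C57BL/6J strain (batch2, 2 cDNA libraries). The antibiotics, ages and numbers of mice are not given in the labels, and the 8 libraries of sample barcodes and any conventional control mice were not analysed here.

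Cells of each condition formed 1 pool, and each pool was its own batch. Condition and batch therefore cannot be told apart, and the conditions could not be tested. There were 3415 antibiotic cells with 36530277 UMI in all, and 768 germ-free cells with 3100880 UMI. Cell names end in a number that splits the antibiotic pool into cell sets 1, 2 and 3 and the germ-free pool into cell sets 3 and 4. Median UMI counts ranged from 6599 to 7420 in the antibiotic sets and were 1045 and 4682 in germ-free sets 3 and 4. Of the antibiotic cells, 837 (24.5%) carried the cell barcode of a larger cell in another antibiotic set, and these cells held 3.40% of the antibiotic UMI. No barcode was shared within the germ-free pool. The mitochondrial share of UMI was 12.4% in the antibiotic and 18.7% in the germ-free pool. Levels are given as CPM, the UMI of a gene per 1000000 UMI of the same cells. Xist, transcribed from the inactive X chromosome of female cells, stood at 209 CPM in the antibiotic and 659 CPM in the germ-free pool, and Uty, on the Y chromosome, at 84.7 and 49.0 CPM. The part of depth, mitochondrial share and sex in the results was not tested.

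Cells were gated by markers into crypt cells (808 antibiotic, 166 germ-free), proximal colonocytes (1241 and 162), distal colonocytes (461 and 154) and goblet cells (64 and 70). The sort can set these shares. Markers kept out of the gates mostly followed them: Ephb2 was at 143 CPM in antibiotic crypt and 10.9 CPM in proximal cells, Hoxd13 at 33.1 CPM in distal and 0.577 CPM in proximal cells, and Atoh1 at 149 CPM in goblet and 12.8 CPM in crypt cells. The crypt checks Ephb2 and Rgmb did not set antibiotic crypt cells apart from goblet cells. Antibiotic goblet cells held 154 CPM of Ephb2 (crypt 143 CPM) and 71.6 CPM of Rgmb (crypt 54.9 CPM). Germ-free goblet cells had less of each than crypt cells, 71.3 against 116 CPM for Ephb2 and 43.6 against 56.8 CPM for Rgmb. Cdk1 and Cenpf, crypt checks that are also mitotic genes, were lower in goblet than in crypt cells of both pools. Adh1, meant as a proximal check, went against its label with 60.2 CPM in proximal and 442 CPM in distal antibiotic cells. Of the 5 immune markers, Ptprc was at 0.547 and 0.322 CPM in the antibiotic and germ-free pools, and Cd3e, Cd79a, Tyrobp and Lyz2 were at or below 0.0821 CPM and at 0. The stromal markers Col1a1, Col3a1 and Pdgfra were at or below 0.0547 CPM and at 0, and Pecam1 was at 3.26 and 2.90 CPM. Markers of enteroendocrine and tuft cells did not exceed 10.3 CPM in either pool, but some were higher within the crypt gate. The tuft marker Dclk1 was at 25.6 and 21.6 CPM in antibiotic and germ-free crypt cells and at 0 in goblet cells. The enteroendocrine marker Chgb was at 15.9 CPM in germ-free crypt cells. Crypt cells also held 449 and 358 CPM of the goblet marker Muc2, so the crypt gate was not free of transcripts of other cell types. The proximal marker Cyp2c55 stood at 3287 CPM in the proximal cells of the antibiotic pool and 1347 CPM in those of the germ-free pool. In goblet cells Zg16 stood at 11874 CPM in the antibiotic and 22260 CPM in the germ-free pool, and Clca1 at 1207 and 4867 CPM. Spink4, kept out of the gates, was at 5282 and 1339 CPM there, and Atoh1 at 149 and 139 CPM. The gates thus rest on markers that themselves differ between the pools.

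Promoter sequence is shown for 3 genes that the patterns below turn on: Hmgcs1 and Insig1, which were higher in goblet than in crypt cells, and Soat1, which was called in each of the 3 contrasts between gates. The sequences are from RefSeq (GRCm38.p6) and are written 5′ to 3′ on the gene's strand. They stop before the first annotated transcribed base. Capitals mark a sterol regulatory element, searched as TCACNCCAC on both strands, and a CCAAT box, searched as CCAAT on both strands.
Hmgcs1, chr13:119690201-119690350 (+): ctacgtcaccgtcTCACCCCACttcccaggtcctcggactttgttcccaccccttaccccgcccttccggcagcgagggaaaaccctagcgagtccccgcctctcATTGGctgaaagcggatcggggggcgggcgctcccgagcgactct
Insig1, chr5:28071213-28071362 (+): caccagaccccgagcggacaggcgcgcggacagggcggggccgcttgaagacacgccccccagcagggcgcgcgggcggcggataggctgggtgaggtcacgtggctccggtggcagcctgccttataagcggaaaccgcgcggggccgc
Soat1, chr1:156474332-156474481 (-): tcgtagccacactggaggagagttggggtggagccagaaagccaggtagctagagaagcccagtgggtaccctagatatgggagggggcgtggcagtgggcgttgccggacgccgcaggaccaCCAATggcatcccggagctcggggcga

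RefSeq start sites were at hand for 27 of the 33 genes, 15 of them synthesis genes. In the 250 bases before the start, a CCAAT box was found for 14 of these 15 synthesis genes (93.3%) and for 21 of the 27, against 39.6% of the 5164 genes above the level limit that have such a window. The sterol element in the letters searched was found for 1 of the 27, Hmgcs1, against 1.39% of those 5164 genes. It lies at position -137 from the start, with a CCAAT box at position -45. The 250 bases before the start of Hmgcs1 held 3 CCAAT boxes in all, not all of them in the printed stretch. Those of Insig1 held 1, which lies outside its printed stretch. The letters GGGCGG of a GC box were present for 14 of the 15 synthesis genes, against 67.2% of those 5164 genes. These matches describe letters only and do not show binding.

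Among the cell types, goblet cells carried the highest summed level of synthesis genes in both pools. The 18 synthesis genes together reached 1826 CPM (95% Poisson interval 1728 to 1928) in antibiotic goblet cells and 887 CPM (868 to 907) in antibiotic crypt cells. In germ-free cells the sums were 1410 CPM (1267 to 1564) in goblet and 761 CPM (704 to 820) in crypt cells. The ratio of goblet to crypt cells was 2.06 (1.94 to 2.18) in the antibiotic and 1.85 (1.63 to 2.11) in the germ-free pool. These intervals cover counting error only, not differences between mice, and cells of 1 pool are not replicates. Goblet cells exceeded crypt cells in each of the 5 cell sets, by 2.26, 1.86 and 1.99 times in antibiotic sets 1, 2 and 3 and by 1.62 and 1.88 times in germ-free sets 3 and 4. The first of these ratios rests on 14 goblet cells. With the antibiotic cells that share a barcode with a larger cell left out, the log2 ratios stayed at 1.04 and 0.89.

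**Figure D1:**
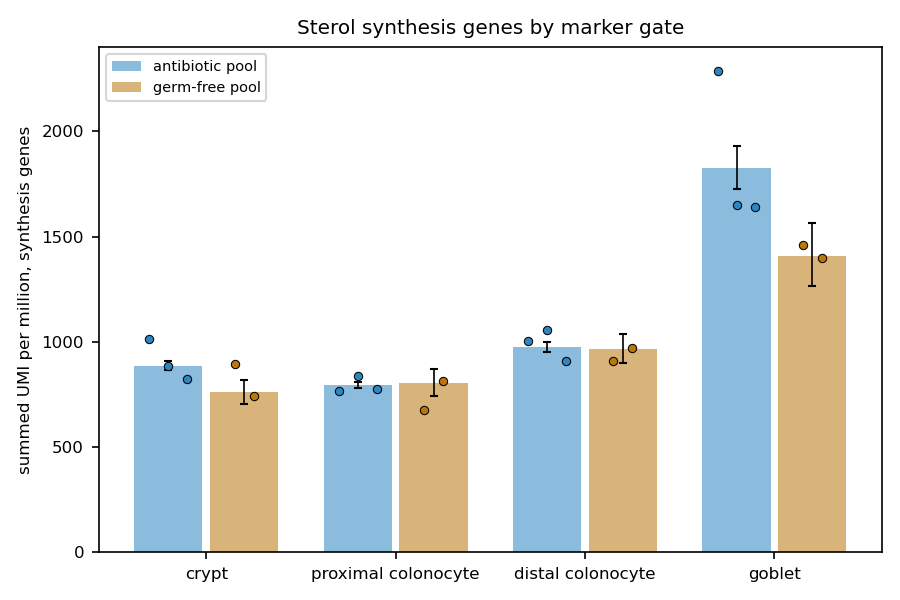
Summed level of the 18 synthesis genes (vertical axis, CPM) in 4 marker gates, for the antibiotic and germ-free pools. Bars are pool values with 95% Poisson intervals for counting error, and points are the numbered cell sets. The goblet bars, 1826 and 1410 CPM, stand above those of the other gates.

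A gene was called higher or lower between gates when its CPM differed at least 1.5-fold in the same direction in both pools, given at least 100 UMI over both gates and 20 CPM in the higher one. Of the 22 cholesterol genes that met this level limit, 9 were higher in goblet than in crypt cells and 0 were lower. Over all 7090 genes that met it, 10.1% were higher and 12.2% lower. The median log2 ratio of the 22 was 0.62 in the antibiotic and 0.76 in the germ-free pool, against -0.09 and -0.07 over all genes.

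Of the 9 genes, 7 encode synthesis enzymes, and they run from the making of HMG-CoA to the trimming of the sterol ring. Hmgcs1 (chr13:119690379-119708260), which makes HMG-CoA, was at 574, 460 and 412 CPM in goblet cells of antibiotic sets 1, 2 and 3 and at 335 and 389 CPM in those of germ-free sets 3 and 4. Crypt cells of the same sets had 153, 130, 134, 144 and 162 CPM of Hmgcs1. All 5 goblet values lay above all 5 crypt values. The goblet level was 3.47 times the crypt level (3.07 to 3.91) in the antibiotic and 2.37 times (1.81 to 3.10) in the germ-free pool.

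Msmo1 (chr8:64718139-64733792), the monooxygenase that starts the C4 demethylation of sterols, was at 439, 202 and 242 CPM in antibiotic goblet cells and at 239 and 161 CPM in germ-free goblet cells. Its crypt values were 109, 85.9 and 87.9 CPM in the antibiotic and 77.5 and 56.9 CPM in the germ-free sets. Again no goblet set overlapped a crypt set, and the ratios were 3.08 (2.63 to 3.60) and 2.95 (1.93 to 4.50).

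The other 5 enzymes higher in goblet cells showed ratios between 1.68 and 2.33. Idi1, the isomerase that readies the isoprenoid unit, was 1.74 times (1.43 to 2.10) and 1.72 times (1.17 to 2.50) its crypt level in the antibiotic and germ-free pools. Fdps, which makes farnesyl diphosphate, was at 1.90 (1.49 to 2.41) and 1.89 times (1.02 to 3.40). Cyp51, the lanosterol demethylase, was at 1.70 (1.37 to 2.09) and 1.68 times (1.12 to 2.48). Lss, which closes the sterol rings, was at 2.32 (1.62 to 3.26) and 2.33 times (0.825 to 6.19), and Pmvk, the phosphomevalonate kinase, at 1.74 (1.14 to 2.57) and 1.90 times (0.578 to 5.61). The germ-free intervals of Lss and Pmvk include 1, with 8 Lss UMI in germ-free goblet cells.

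Other enzymes passed the 1.5-fold limit in 1 pool at most. Fdft1, squalene synthase, was 2.10 times its crypt level (1.74 to 2.51) in antibiotic and 1.35 times (0.752 to 2.34) in germ-free goblet cells. Sqle, squalene epoxidase, gave 1.20 (0.828 to 1.69) and 2.07 (1.17 to 3.61). Dhcr7, the reductase of the last step to cholesterol in one branch, gave 0.786 (0.487 to 1.21) and 2.09 (0.625 to 6.36). For Sc5d, the lathosterol oxidase, the ratio was 0.983 (0.650 to 1.43) in antibiotic and 2.64 (1.51 to 4.58) in germ-free cells. Whether these ratios differ between the pools was not tested.

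Beyond the enzymes, a sensor and a storage gene were called higher in goblet cells. Insig1 (chr5:28071363-28078662), the sterol sensor that retains SCAP and is itself an SREBP target, was 2.26 times its crypt level (1.85 to 2.73) in the antibiotic and 3.21 times (1.74 to 5.89) in the germ-free pool. Soat1 (chr1:156424525-156474331), which esterifies cholesterol for storage, was at 1.74 (1.32 to 2.26) and 2.83 times (1.81 to 4.42). The 2 abundant genes Srebf2, the SREBP most tied to sterol synthesis, and Stard4, a cytosolic carrier of cholesterol, were not called: Srebf2 had ratios of 1.36 (1.15 to 1.60) and 1.49 (1.03 to 2.14), and Stard4 of 1.39 (1.18 to 1.64) and 1.45 (1.07 to 1.93).

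**Figure D2:**
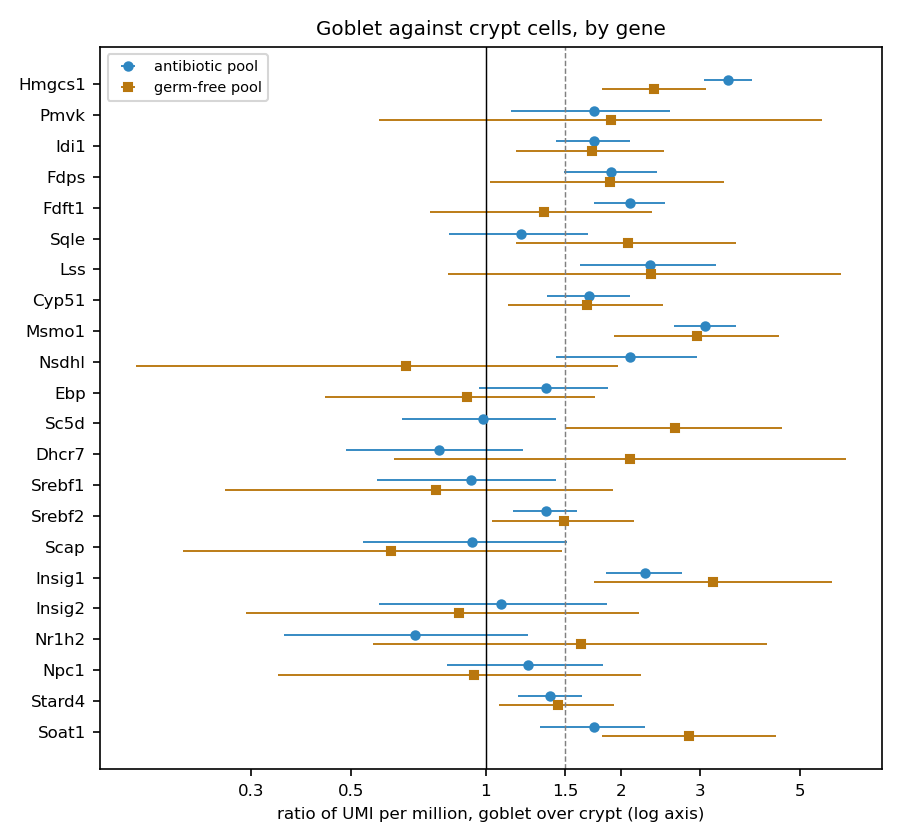
Ratio of goblet to crypt level (horizontal log axis) for the 22 cholesterol genes above the level limit, with 95% intervals for counting error, in the antibiotic (circles) and germ-free (squares) pools. The solid line marks a ratio of 1 and the dashed line the limit of 1.5. Hmgcs1, Msmo1 and Insig1 lie beyond 2 in both pools.

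The goblet gate differed from the crypt gate in more than these genes. Mitochondrial genes took 8.87% of UMI in antibiotic goblet and 11.7% in antibiotic crypt cells, and 11.5% and 18.0% in germ-free ones. Goblet and crypt cells had a median of 7792 and 7840 UMI in the antibiotic pool, but of 2343 and 4061 UMI in the germ-free pool. Cells under 1000 UMI were then left out and every other cell was thinned to 1000 UMI. This kept 2891 antibiotic and 625 germ-free cells, with 55 and 56 goblet cells, so the cells changed as well as the depth. In the thinned cells 5 of the 33 genes still met the level limit. Of these, 3 were higher in goblet cells, Hmgcs1, Srebf2 and Stard4, against 10.1% of the 1858 genes left. Soat1 was under the level limit there, with a ratio of 0.889 in the antibiotic and 3.43 in the germ-free pool. Of the 9 calls, 8 were left without antibiotic set 1 (Pmvk lost), and Fdps was lost without germ-free set 3. Pmvk, Idi1 and Lss were lost without germ-free set 4. Stricter gates lost Soat1. With the limit raised to 2-fold, 4 of the 22 genes were called higher, Hmgcs1, Lss, Msmo1 and Insig1, against 4.75% of all genes above the level limit.

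Colonocytes and crypt cells were far closer to each other in synthesis genes. Their sum was 793 CPM (780 to 807) in antibiotic proximal colonocytes and 977 CPM (954 to 1000) in distal ones, and 805 CPM (744 to 869) and 968 CPM (901 to 1038) in the germ-free pool. Distal cells stood at 1.23 (1.20 to 1.27) and 1.20 times (1.08 to 1.34) the proximal sum. All 5 cell sets had the distal sum above the proximal one, by 1.17 to 1.35 times. Crypt over proximal gave 1.12 (1.09 to 1.15) in the antibiotic and 0.945 (0.848 to 1.05) in the germ-free pool, so the direction was not shared. Germ-free set 3 alone gave 1.33, from 40 crypt and 37 proximal cells.

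Of 21 cholesterol genes above the level limit, 2 were higher in crypt than in proximal cells and 0 lower, against 28.4% higher and 11.2% lower of 6968 genes. The median log2 ratio of the 21 was 0.31 in the antibiotic and -0.09 in the germ-free pool, where all genes had 0.36 and 0.23. Between distal and proximal cells 1 of 22 was higher and 0 lower, against 10.1% and 7.88% of 6247 genes. The median of the 22 was 0.22 and 0.16, and that of all genes 0.15 and 0.07.

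Soat1 was the gene called in both of these contrasts, and its level ordered the 4 gates in the same way in both pools. In crypt cells Soat1 was at 58.1, 60.4 and 41.2 CPM in the antibiotic sets and 55.4 and 54.4 CPM in the germ-free sets. In proximal colonocytes it was at 3.87, 9.63 and 6.58 CPM and at 0 and 9.26 CPM. Each crypt value was above each proximal value, and the crypt level was 7.45 times (6.09 to 9.18) and 6.30 times (2.83 to 16.5) the proximal level. Distal colonocytes lay between them, with 26.0 CPM (22.4 to 30.0) in the antibiotic and 32.2 CPM (21.0 to 47.2) in the germ-free pool, 3.76 (2.97 to 4.76) and 3.72 times (1.57 to 10.2) the proximal level. Goblet cells had 89.8 CPM (69.2 to 115) and 154 CPM (110 to 211). The germ-free crypt and distal intervals overlap, and in germ-free set 3, with 44 distal cells, Soat1 was higher in distal (74.7 CPM) than in crypt cells (55.4 CPM), so those neighbours in the order were not separated there. Thinned cells left Soat1 below the limit of 100 UMI, with a crypt over proximal ratio of 7.23 and 8.60. The second esterifying enzyme, Soat2, did not exceed 7.92 CPM in any gate of either pool.

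Srebf1, the SREBP most tied to fatty acid synthesis, was the other gene higher in crypt cells. It was at 33.3 CPM (29.7 to 37.2) in antibiotic crypt and 15.7 CPM (13.9 to 17.7) in antibiotic proximal cells, and at 30.7 CPM (20.2 to 44.6) and 14.8 CPM (7.66 to 25.9) in germ-free ones. The ratios were 2.12 (1.80 to 2.51) and 2.07 (1.01 to 4.48). In thinned cells Srebf1 was under the level limit, with ratios of 2.13 and 2.87. The thinned crypt and proximal cells left 9 cholesterol genes above the limit, of which Fdft1 was higher (1.51 and 1.55 times) and Npc1 lower (0.593 and 0.608 times) in crypt cells, against 18.7% higher and 14.8% lower of all genes.

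Among genes not called between crypt and proximal cells, the most abundant were Hmgcs1, Stard4, Srebf2 and Msmo1. Hmgcs1 had a ratio of 0.996 in both pools (0.930 to 1.07 and 0.779 to 1.27). Msmo1 had 0.834 (0.769 to 0.905) and 0.663 (0.455 to 0.961). Npc1, which exports cholesterol from lysosomes, had 0.713 (0.623 to 0.815) and 0.569 (0.335 to 0.949). Insig2, the INSIG that is not an SREBP target, was at 18.2 CPM in crypt and 42.2 CPM in proximal antibiotic cells, but at 27.2 and 32.1 CPM in germ-free ones. Between distal and proximal cells, Ebp, the sterol isomerase, had ratios of 1.75 (1.57 to 1.94) and 1.45 (0.974 to 2.17) and so missed the limit in the germ-free pool. Ebp was called higher in distal cells after thinning (1.76 and 3.33 times), in stricter gates and without germ-free set 4.

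Cycling crypt cells picked by mitotic transcripts (154 antibiotic, 41 germ-free) are called mitotic here. Their summed synthesis level was 1.16 times (1.10 to 1.22) that of the other crypt cells in the antibiotic and 1.34 times (1.14 to 1.57) in the germ-free pool. Hmgcs1 was at 163 and 131 CPM in mitotic and other antibiotic crypt cells, and at 247 and 119 CPM in germ-free ones. Its ratios were 1.24 (1.08 to 1.42) and 2.08 (1.47 to 2.94). Dhcr7 gave 1.52 (1.19 to 1.94) in the antibiotic pool and 2.11 (0.486 to 9.17), from 5 mitotic UMI, in the germ-free pool. Other synthesis genes had ratios under 1, with intervals that include 1. These were Msmo1, Mvd, Tm7sf2 and Nsdhl in the antibiotic pool (0.760 to 0.931). In the germ-free pool they were Fdps, Tm7sf2 and Sc5d (0.437 to 0.675). No share over all genes is at hand for this contrast.

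Germ-free and antibiotic cells were then compared over all cells of each pool. Members with at least 100 UMI over both pools and 20 CPM in the higher pool were ranked, which kept 21 of the 33, and a gene was called higher or lower when the 2 germ-free values did not overlap the range of the 3 antibiotic values. Of the 21, 5 were higher in germ-free cells, 9 were lower and 7 overlapped. Over all 6462 genes ranked, 29.4% were higher and 24.5% lower. The median log2 ratio was -0.04 for the 21 and 0.05 for all genes. Over all cells of a pool, fewer cells of a type and less RNA per cell cannot be told apart. Goblet cells were 1.87% of antibiotic and 9.11% of germ-free cells, and proximal colonocytes 36.3% and 21.1%.

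As a sum, the synthesis genes did not separate the pools. Their sum was 871 CPM (861 to 880) in the antibiotic and 860 CPM (828 to 894) in the germ-free pool, a ratio of 0.988 (0.950 to 1.03). By cell set the sums were 898, 916 and 825 CPM against 849 and 862 CPM, and the germ-free values lay inside the antibiotic range. Within gates the ratio of germ-free to antibiotic was 0.857 (0.791 to 0.928) in crypt, 1.01 (0.936 to 1.10) in proximal, 0.991 (0.919 to 1.07) in distal and 0.772 (0.685 to 0.869) in goblet cells. In goblet cells both germ-free sets (1458 and 1400 CPM) lay below the antibiotic sets (2286, 1651 and 1642 CPM). In crypt cells they overlapped, with 897 and 745 CPM against 1012, 886 and 823 CPM. Goblet markers differed between the pools, as given above, and their part in the goblet ratios was not tested.

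Single enzymes went different ways. Dhcr7 (chr7:143823145-143848410) was at 38.1, 41.4 and 37.8 CPM in the antibiotic sets and at 19.9 and 19.3 CPM in the germ-free sets. The germ-free level was 0.496 of the antibiotic level (0.376 to 0.642), with no overlap of sets. By gate the antibiotic and germ-free levels of Dhcr7 were 39.3 and 11.4 CPM in crypt, 37.8 and 24.7 CPM in proximal, 44.3 and 24.8 CPM in distal and 30.9 and 23.8 CPM in goblet cells. The interval of the ratio excludes 1 in crypt (0.137 to 0.538) and distal cells (0.337 to 0.878) and includes it in proximal (0.397 to 1.02) and goblet cells (0.255 to 1.96).

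Fdft1 was at 88.0, 81.5 and 75.4 CPM in the antibiotic and 39.7 and 54.9 CPM in the germ-free sets, a ratio of 0.660 (0.561 to 0.773). Msmo1 was at 123, 122 and 107 CPM against 89.3 and 91.9 CPM, a ratio of 0.793 (0.701 to 0.895). Both were lower in germ-free cells by the rule, and the germ-free pool value was below the antibiotic one in all 4 gates. Nsdhl, a dehydrogenase of sterol demethylation, was at 26.1, 20.5 and 19.8 CPM against 14.9 and 18.2 CPM, and Pmvk at 21.3, 26.2 and 24.0 CPM against 14.9 and 18.2 CPM. The intervals of the ratio were 0.619 to 1.09 for Nsdhl, which includes 1, and 0.549 to 0.965 for Pmvk.

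Sqle and Ebp were the enzymes higher in germ-free cells. Sqle was at 42.0, 45.8 and 45.0 CPM in the antibiotic and 52.1 and 53.4 CPM in the germ-free sets, a ratio of 1.19 (1.01 to 1.40). Ebp was at 40.0, 60.0 and 52.0 CPM against 62.0 and 61.2 CPM, a ratio of 1.18 (1.01 to 1.37). The gap between the pools was wider than the spread of the antibiotic sets for Sqle and narrower for Ebp. Ebp, higher in germ-free cells, and Nsdhl, lower in them, both lie on chromosome X. The pools differed in Xist as given above, and the part of sex in these ratios was not tested.

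The 5 enzymes whose sets overlapped included the most abundant. Hmgcs1 was at 156, 147 and 144 CPM in the antibiotic and 151 and 181 CPM in the germ-free sets. Idi1 was at 92.1, 85.9 and 72.9 CPM against 149 and 90.1 CPM, and Cyp51 at 84.7, 80.8 and 70.2 CPM against 84.4 and 99.7 CPM. In each of these 3 genes 1 germ-free set lay inside the antibiotic range and the other above it. Fdps was at 45.3, 62.4 and 51.9 CPM against 47.1 and 50.0 CPM, and Sc5d at 52.5, 49.6 and 45.9 CPM against 59.6 and 52.3 CPM. The remaining 6 synthesis genes, Acat2, Mvk, Mvd, Lss, Tm7sf2 and Hsd17b7, were below the level limit, between 8.06 and 19.4 CPM in either pool.

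**Figure D3:**
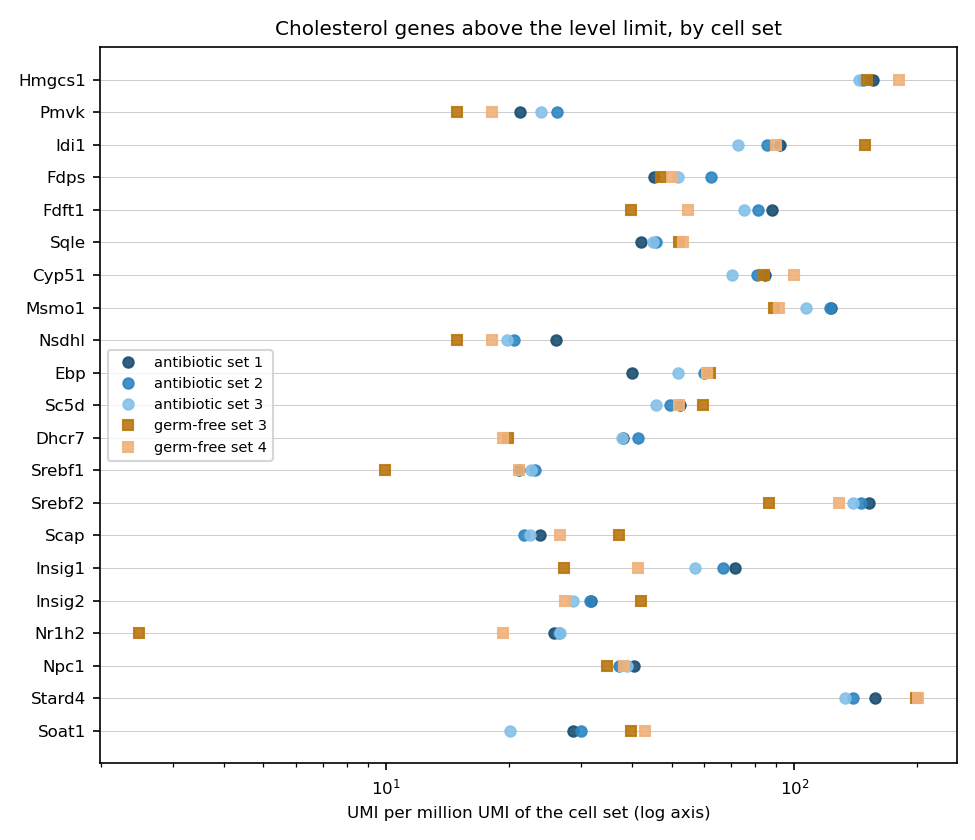
Level of the 21 ranked cholesterol genes (horizontal log axis, CPM of the cell set) in the 3 antibiotic sets (circles) and 2 germ-free sets (squares). Dhcr7, Fdft1 and Insig1 show both squares left of all circles, and Stard4 and Soat1 show them on the right.

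Among sterol sensors, 4 of 6 ranked genes were lower and 1 was higher in germ-free cells. Over all ranked genes 24.5% were lower and 29.4% higher. Insig1 was at 71.7, 67.0 and 57.2 CPM in the antibiotic and 27.3 and 41.5 CPM in the germ-free sets. The sets did not overlap, and the germ-free level was 0.624 of the antibiotic level (0.516 to 0.748). In crypt cells Insig1 was at 77.2 CPM in the antibiotic and 28.4 CPM in the germ-free pool, a factor of 2.72 (1.83 to 4.23). Whether the gates differ in this factor was not tested. In distal colonocytes it was at 68.5 and 29.7 CPM, a factor of 2.31 (1.53 to 3.63), and in goblet cells at 174 and 91.1 CPM, a factor of 1.91 (1.22 to 3.13). In proximal colonocytes the values were 49.3 and 43.3 CPM, a factor of 1.14 (0.813 to 1.65). In all 4 gates both germ-free sets lay below the 3 antibiotic sets, narrowly so in proximal cells, with 18.7 and 45.0 CPM against 50.6, 53.2 and 46.1 CPM. Germ-free set 3 had 11.1 CPM in crypt, 0 CPM in distal and 47.8 CPM in goblet cells. Its values in all 4 gates rest on a few UMI at most, so that set adds little.

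Srebf2 was at 152, 146 and 139 CPM in the antibiotic and 86.8 and 129 CPM in the germ-free sets, a ratio of 0.857 (0.770 to 0.951). By gate the ratio was 0.709 (0.577 to 0.865) in crypt and 1.05 (0.861 to 1.28) in proximal cells. In distal cells it was 0.848 (0.672 to 1.06) and in goblet cells 0.779 (0.547 to 1.09). Srebf1 was at 21.1, 23.2 and 22.6 CPM against 9.93 and 21.1 CPM, so that 1 germ-free set lay just under the lowest antibiotic set, and the interval of its ratio, 0.663 to 1.14, includes 1. Nr1h2, the widely expressed LXR receptor, was at 25.7, 26.5 and 26.7 CPM against 2.48 and 19.3 CPM, where the 2.48 CPM of germ-free set 3 is a single UMI.

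Scap, the escort of the SREBPs, was at 23.8, 21.8 and 22.5 CPM in the antibiotic and 37.2 and 26.7 CPM in the germ-free sets, higher by the rule with a ratio of 1.24 (0.984 to 1.55) that does not exclude 1. Insig2 was at 31.7, 31.5 and 28.7 CPM against 42.2 and 27.4 CPM, and its sets overlapped. The second LXR gene, Nr1h3, stood below the level limit at 13.7 and 9.35 CPM.

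Among transport and storage genes 2 of 3 ranked genes were higher in germ-free cells and 0 lower. The shares over all ranked genes were 29.4% and 24.5%. Stard4 was at 158, 139 and 133 CPM in the antibiotic and 199 and 201 CPM in the germ-free sets, with no overlap and a ratio of 1.43 (1.31 to 1.55). By gate its ratio was 1.67 (1.42 to 1.95) in proximal and 1.33 (1.13 to 1.57) in distal colonocytes, and 1.16 (0.977 to 1.36) in crypt and 1.20 (0.889 to 1.60) in goblet cells. Npc1 was at 40.4, 37.1 and 38.9 CPM against 34.7 and 38.2 CPM and overlapped.

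Soat1 was at 28.7, 30.0 and 20.1 CPM in the antibiotic and 39.7 and 43.0 CPM in the germ-free sets, a ratio of 1.69 (1.39 to 2.03). Within gates the ratio was 1.06 (0.768 to 1.42) in crypt, 1.25 (0.492 to 2.65) in proximal and 1.24 (0.787 to 1.87) in distal cells, and 1.72 (1.12 to 2.60) in goblet cells. The ratio over all cells stood above those of crypt, proximal and distal cells, beside the shares of goblet and proximal cells given above. With equal weight for the 4 gates Soat1 was higher in germ-free cells. That weighting gives goblet cells, 1.87% and 9.11% of cells and the gate with the highest ratio, as much weight as each other gate. The part of the cell shares in the ratio over all cells was not tested.

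**Figure D4:**
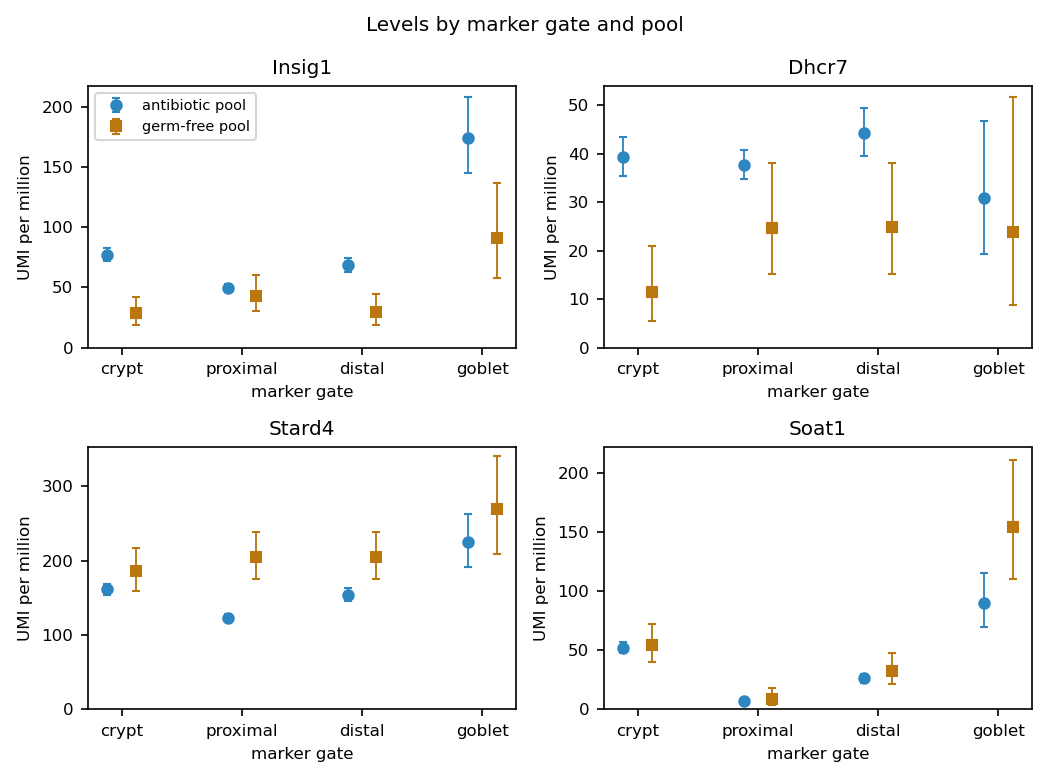
Levels of Insig1, Dhcr7, Stard4 and Soat1 (vertical axes, CPM, each with its own scale) by marker gate in the antibiotic (circles) and germ-free (squares) pools, with 95% Poisson intervals for counting error. Insig1 differs least between the pools in proximal cells (49.3 and 43.3 CPM), and Soat1 is lowest there in both pools.

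The genes of uptake from the lumen and of efflux were detected, but below the level limit of 20 CPM. Npc1l1, the carrier that takes cholesterol up from the gut lumen, was at 1.34 CPM (49 UMI) in the antibiotic and 2.58 CPM (8 UMI) in the germ-free pool. Abca1, which loads cholesterol onto apolipoproteins, was at 8.68 and 6.45 CPM. Abcg5 and Abcg8, which together form the pump that returns sterol to the lumen, were at 4.60 and 5.16 CPM and at 2.87 and 6.77 CPM. Abcg8 rests on 21 germ-free UMI. Of the 3 efflux genes 0 met the level limit, and their sum was 16.2 CPM (14.9 to 17.5) and 18.4 CPM (13.9 to 23.8). In goblet cells 10 antibiotic and 2 germ-free UMI of efflux genes were counted. A count of 0, as for Abcg8 in germ-free goblet cells, allows up to 11.9 CPM at that depth (3 counts).

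Calls between the pools depended on the cells and the scale. All 14 calls held with the cells of shared barcodes left out. Scaled to UMI without mitochondrial genes, which moved the median log2 ratio of all genes from 0.05 to 0.16, 9 of the 22 then ranked were higher and 8 lower, against 39.7% and 17.2% of all genes. With median-of-ratios scaling, which moved it to -0.06, 4 of 22 were higher and 10 lower, against 24.4% and 30.8%. Dhcr7, Fdft1, Insig1 and Stard4 kept their call under every alternative tried. Pmvk, Msmo1, Nsdhl, Srebf1, Scap and Ebp each lost theirs under 2 or more, and Sqle, Srebf2, Nr1h2 and Soat1 under 1.

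Other genes of the pathway were read from lists by the same rules. These lists, too, were chosen with earlier results known. Of the 10 fatty acid synthesis genes, which SREBPs also drive, 7 met the level limit: 6 were higher and 1 lower in crypt than in proximal cells, 4 higher and 1 lower in distal than in proximal cells, and 0 higher and 2 lower in goblet than in crypt cells. Over all genes the shares were 28.4% higher and 11.2% lower in crypt than in proximal cells, 10.1% and 7.88% in distal than in proximal cells, and 10.1% and 12.2% in goblet than in crypt cells, and the smaller lists below read against the same shares. Scd2, a desaturase, was at 3.44 (3.24 to 3.65) and 2.65 times (2.11 to 3.35) its proximal level in crypt cells of the antibiotic and germ-free pools, and at 0.598 (0.501 to 0.709) and 0.611 times (0.446 to 0.822) its crypt level in goblet cells. Elovl6, an elongase, was the gene lower in crypt cells, at 0.375 (0.347 to 0.405) and 0.641 times (0.478 to 0.855). Acly, which supplies cytosolic acetyl-CoA to both pathways, was at 7.48 (6.74 to 8.31) and 3.99 times (2.59 to 6.37) its proximal level. Between the pools Scd2 was higher in germ-free cells, with 454 and 287 CPM against 227, 232 and 234 CPM, and Elovl6 lower, with 104 and 112 CPM against 155, 127 and 157 CPM. By gate the germ-free over antibiotic ratio of Elovl6 was 0.649 (0.536 to 0.779) in proximal, 1.11 (0.873 to 1.39) in crypt, 1.27 (0.944 to 1.68) in distal and 2.34 (1.53 to 3.56) in goblet cells, so the lower level was seen in proximal cells and the opposite in goblet cells. The difference between this list and the sterol genes was not tested.

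Of the 9 isoprenoid genes, which draw on the same mevalonate, 1 was higher (Nus1) and 2 lower (Pdss1 and Pdss2) in goblet than in crypt cells, and 4 were higher and 1 lower in crypt than in proximal cells. Among genes that process or degrade the SREBP machinery, 2 of 5 above the level limit, the SREBP proteases Mbtps1 and Mbtps2, were higher in crypt than in proximal cells. Of the other sterol transport genes, Npc2, the lysosomal partner of NPC1, was at 2.22 (2.06 to 2.38) and 2.19 times (1.60 to 3.04) its proximal level in crypt cells. Lipa, the lysosomal lipase that frees cholesterol from its esters, was at 0.0875 (0.0620 to 0.120) and 0.127 times (0.0324 to 0.361). Of that list 2 were higher and 2 lower in crypt than in proximal cells, of 8 tested, and 2 higher and 1 lower in goblet than in crypt cells, of 7. Between the pools 1 of 8, Mylip, was higher in germ-free cells and 3, Lipa, Gramd1b and Osbpl2, were lower, while 3 of 7 isoprenoid genes (Nus1, Pggt1b and Coq2) and 1 of 5 SREBP processing genes (Erlin2) were higher. Over all genes 29.4% were higher and 24.5% lower, and lists this short with counts near those shares show nothing particular to the list. Of the 3 oxysterol genes 0 met the level limit.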

How the data were processed

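The deposited values are natural log values, made by the authors from UMI counts: ln(1 + count per 10000 UMI of the cell), as the file shows, since the back-transformed values of every cell sum to 10000. Cell Ranger 7.0.0, kallisto and bustools and the build mm10 are named, per the submitters' processing notes, without their roles. Dividing by the smallest step of each cell gave whole UMI counts (100% of 9481333 values within 0.01). Counts were summed per cell set, pool and gate and scaled to CPM. Exact Poisson intervals (levels) and conditional binomial intervals (ratios) are at 95% and cover counting error only. Log2 ratios use CPM + 1, which understates changes of low genes. No count model or p-value was used, since each condition is 1 pool. The germ-free set numbers (3 and 4) do not match the labels' library numbers, so sets were not tied to libraries. 0 columns of values were left unused.

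Each marker list's share of a cell's UMI was divided by its mean over cells, averaged over the pools. Crypt cells with at least 2 UMI of mitotic genes and 5 per 10000 UMI were called mitotic. Goblet cells needed at least 5 UMI and 1% of UMI from the goblet list. Otherwise the higher of the crypt and colonocyte scores decided, with at least 3 UMI of that list, and colonocytes with at least 2 UMI of a regional list took the region with the higher score. Cells passing none were left out of gates (672 antibiotic and 146 germ-free ungated cells, 169 and 70 colonocytes without a region). No doublet caller was run. The members, gene lists and rules were chosen with earlier results of these data known. All members were to be accounted for, ranked ones with every cell set, called ones and up to 4 others per gate contrast, and up to 3 genes per other list. Genes named beyond that rule were named after their values were seen. They are those of the other lists past 3 a list, Insig2, Npc1, Ebp, Sc5d and Dhcr7 in gate contrasts, and the single genes given for mitotic crypt cells. Alternatives were other scalings, filters, gates, cells, pseudocounts and depths, and each cell set left out. Gene positions are from GENCODE vM21 (mm10). Scripts were tested on simulated data. SciPy 1.17.1 gave the intervals. Tables were handled with pandas 2.3.3 and NumPy 2.4.6 under Python 3.11.15, and matplotlib 3.10.9 drew the plots. One result of the SREBP processing list between goblet and crypt cells is not reported here.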

Additional observations from a re-analysis of the deposited data

Results flagged for a closer look

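In 6 cases the ratio between 2 gates pointed one way in every antibiotic cell set and the other way in both germ-free sets, counting sets with at least 20 cells in both gates. The difference between the pools was not tested. No share over all genes is at hand for this pattern, so the 6 cases are not read as particular to the cholesterol genes. Insig1 showed it for 2 contrasts. Crypt over proximal was 0.64 on the log2 scale in the antibiotic and -0.59 in the germ-free pool, a difference of -1.23, and distal over proximal was 0.47 and -0.53, a difference of -0.99. In germ-free set 3 these rest on 1 crypt, 0 distal and 1 proximal UMI of Insig1, and the germ-free ratios have intervals that include 1 (0.376 to 1.13 and 0.391 to 1.19). Srebf2 (0.38 and -0.19) and Stard4 (0.39 and -0.14) also pointed opposite ways for crypt over proximal, with differences of -0.57 and -0.53, and their germ-free intervals also include 1 (0.665 to 1.16 and 0.727 to 1.13). For goblet over crypt, Ebp gave 0.43 and -0.13, a difference of -0.57 with intervals that include 1 in both pools (0.964 to 1.87 and 0.439 to 1.75). Sc5d gave -0.02 and 1.38, a difference of 1.40, with intervals of 0.650 to 1.43 and 1.51 to 4.58.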

How the results depend on the processing

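No paired analysis was possible because each condition was 1 pool in its own batch. No label links an antibiotic library (1 to 3) to a germ-free library (6 and 7). Where a value moved, the cause was not tested. The count of members higher in germ-free cells (5, with 29.4% of all genes ranked) became 9 without mitochondrial UMI (39.7%), 9 with means of per-cell CPM (28.9%) and 8 without the filter on low counts (16.8%), and ran from 5 to 9 with 1 cell set left out (9 without antibiotic set 1, with 38.2% of all genes, and 8 without germ-free set 4, with 47.8%). The count lower (9, with 24.5%) became 4 in thinned cells (23.4%), where 15 members were ranked. Members higher in crypt than in proximal cells (2) became 5 without the filter (25.9% of all genes), and those lower (0) became 1 in stricter gates (12.7%) and 0 to 1 with 1 set left out (1 without antibiotic set 2). Members higher in distal than in proximal cells (1) became 2 in stricter gates, 5 without the filter (11.4%) and 1 to 2 with 1 set left out (2 without germ-free set 4), and those lower (0) became 1 in stricter gates and 0 to 1. Members higher in goblet than in crypt cells (9) became 4 at a 2-fold limit (4.75%), and those lower (0) became 2 without the filter (17.3%) and 0 to 1 with 1 set left out (1 without antibiotic set 2 or germ-free set 4). Gate counts given without a share over all genes, as with sets left out, cannot be read against that share. On the log2 scale, the synthesis sum of germ-free over antibiotic cells (-0.02) became 0.09 without mitochondrial UMI, 0.11 in stricter cells, -0.12 with median-of-ratios scaling and -0.19 with equal gate weights. Goblet over crypt (1.04 antibiotic, 0.89 germ-free) became 1.27 in thinned antibiotic and 0.72 in stricter germ-free cells, and ran from 0.95 (without antibiotic set 1) to 1.11 and from 0.70 (without germ-free set 4) to 0.91 with 1 set left out. Distal over proximal in germ-free cells (0.27) became 0.43 in stricter and 0.45 in thinned cells and ran from 0.26 to 0.43, and crypt over proximal (-0.08) ran from -0.13 to 0.41, 0.41 without germ-free set 4. That sum ratio turned direction there. Leaving out cells with shared barcodes, and thinning cells for counts between gates, were added after the data were seen. Germ-free depth limits low genes: 3 counts are 3.41 CPM in crypt and 11.9 CPM in goblet cells.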
